A study of Homo sapiens with 14 samples.

Results

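The 10 genes described here act on the poly(A) tail of RNA or bind the proteins that coat it: PABPC1, PABPC4, PABPN1, ATXN2, ATXN2L, PAN2, PAN3, PAPOLA, PAPOLG and PAIP1. They were chosen by symbol from 60876 annotated genes, and each one had enough reads to be tested. Poly(A) RNA was sequenced from MDA-MB-231, an established human breast cancer cell line, in 14 libraries that form 7 groups of 2 replicates. The control group received neither compound. The study's methods call it untreated and its results text a DMSO control, so whether it had the vehicle is not known here. The others received 5 µM RBI2, a small molecule that lowers precursor rRNA, or 5 µM CX-5461, an inhibitor of RNA polymerase I, and were labelled 10, 30 or 120 min. The number in the file name, read without a unit, differs from the label in 12 of 12 treated libraries (2 for the label 10 min, 10 for 30 min and 30 for 120 min). These numbers rise in the order of the labels. A time below is always the label, and the true times and their order are uncertain. The comparisons ask which mRNAs changed with either compound. The same 2 control libraries enter every comparison with the control, all libraries come from 1 cell line, and nothing in the labels says that replicates were separate cultures, so the p-values measure the spread between these libraries.

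A poly(A) tail is added to a new mRNA in the nucleus, shields its end and is shortened in the cytoplasm before decay. PAPOLA and PAPOLG are the canonical nuclear poly(A) polymerases, and PABPN1 binds the growing tail and stimulates them. In the cytoplasm PABPC1 and its relative PABPC4 coat the tail and contact the translation initiation factor eIF4G, while PAIP1 is a partner of PABPC1 that favours translation. PAN2 and PAN3 form a deadenylase, in which PAN2 is the nuclease and PAN3 the subunit that recruits it to tails. Ataxin-2, from ATXN2, and its relative from ATXN2L are RNA-binding proteins that dock on PABPC1 and gather in stress granules. The mRNAs of these proteins are what was measured here, not the proteins or the tails.

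Ataxin-2 is best known for a run of CAG codons that is expanded in an inherited ataxia, and the tract also marks the transcripts that begin at the first coding exon. It is shown because ATXN2 transcripts with and without it behaved differently in 1 control library, as described below. In the GENCODE release 44 sequence of ATXN2-229, which belongs to the reference genome and not to these cells, the tract lies in coding exon 1 on the minus strand at chr12:111598951-111599019 of GRCh38. Capitals mark its 69 bases, 22 CAG and 1 CAA triplets, with 24 bases on each side in lower case.
ATXN2-229: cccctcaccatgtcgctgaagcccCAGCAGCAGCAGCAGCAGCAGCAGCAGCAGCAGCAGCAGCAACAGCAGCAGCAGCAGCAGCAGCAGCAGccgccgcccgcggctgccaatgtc

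Between 14112299 and 24849354 reads per library were assigned to transcripts, with a median of 16305236. Control replicate 2 stood apart from the other libraries. Mitochondrial genes took 20.4% of its reads and between 8.05% and 11.15% in the other 13, and 1412 genes lay over 2-fold apart between the control replicates against 461 to 629 in the treated pairs. The main comparisons of each member with the control are therefore also given without it. The mesenchymal markers of this line were present, with VIM between 2080 and 2690 TPM (a level per transcript length) and AXL between 239 and 392 TPM, whereas ESR1, PGR, CDH1, PTPRC and PECAM1 stayed below 0.3 TPM and EPCAM lay between 11.4 and 22.4 TPM.

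On the per-length TPM scale PABPC1 was by far the most abundant of the 10, with a median over the libraries of 1708 TPM. PABPC4, PAIP1, PAPOLA and PABPN1 followed with medians of 193.8, 173.5, 148 and 130.6 TPM, ranges that overlap among neighbours. ATXN2L lay at 92 TPM and ATXN2 at 45.5 TPM. The deadenylase subunit PAN3 (11.5 TPM), the polymerase PAPOLG (8.97 TPM) and the deadenylase nuclease PAN2 (4.12 TPM) were the scarcest, and PAN2 rested on only 60 to 159 estimated reads per library. PABPC1 rested on 18633 to 36855.

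No member passed the adjusted p of 0.05 together with a log2 fold change of at least 1 either way, in any of 12 comparisons. Values below are CPM (reads scaled to the library size, after TMM scaling) and log2 fold changes ± SE, with p-values from edgeR's quasi-likelihood test adjusted by Benjamini-Hochberg over 15426 genes. Against the control, the share of all genes that passed was 0.0778%, 0.0389% and 1.82% for RBI2 labelled 10, 30 and 120 min, and 1.64%, 0% and 0.0454% for CX-5461. Between the compounds it was 1.04%, 0.013% and 1.67% at the same labels. For the mean over the labels it was 0.454% (RBI2 against control), 0.169% (CX-5461 against control) and 0.882% (RBI2 against CX-5461). DESeq2 with the same fold limit also gave 0 of 10 members in each. With control replicate 2 as the only control, ATXN2 passed, lower, for RBI2 labelled 10 and 30 min, CX-5461 labelled 10 and 30 min and the CX-5461 mean, and PAPOLG for RBI2 labelled 120 min and CX-5461 labelled 10 min, where 724 to 1354 of 16252 genes passed.

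With the adjusted p alone, 4 members passed for RBI2 labelled 120 min, where 18% of all genes did, 2 between the compounds labelled 120 min (16.1%), 1 for the RBI2 mean (4.99%) and 1 between the means (8.59%). In the other 8 comparisons 0 members passed. The share of all genes in these was 0.201% and 0.0713% for RBI2 labelled 10 and 30 min, 4.77%, 0% and 0.0778% for CX-5461 at the 3 labels, 3.06% and 0.013% between the compounds labelled 10 and 30 min, and 0.752% for the CX-5461 mean. DESeq2 with the adjusted p alone gave 1, 1 and 6 members for RBI2 at the labels, beside 1.14%, 5.89% and 21.1% of all genes, and 2, 0 and 0 for CX-5461, beside 5.77%, 0.162% and 0.473%. Between the compounds it gave 0, 0 and 4, beside 3.54%, 0.292% and 17.2%, and for the means 5, 1 and 1, beside 14.5%, 2.18% and 11.1%. The members that passed by DESeq2 and not by edgeR were PABPC1 for RBI2 labelled 10 and 30 min, PAN3 and PAPOLA for RBI2 labelled 120 min, ATXN2 and PAPOLG for CX-5461 labelled 10 min, PAPOLA and PAIP1 between the compounds labelled 120 min, ATXN2, PAPOLA, PAPOLG and PAIP1 for the RBI2 mean, and ATXN2 for the CX-5461 mean. An unadjusted p under 0.05 was reached by 2, 5 and 6 members for RBI2 labelled 10, 30 and 120 min, beside 12.9%, 25.8% and 35.9% of all genes, and by 2, 5 and 1 for CX-5461, beside 22.5%, 22.9% and 12.4%. Between the compounds 0, 0 and 5 members reached it, beside 14.2%, 7.79% and 31.6%, and for the means 6, 4 and 2, beside 32.3%, 22.1% and 26.7%. Median log2 fold changes of the members lay between -0.40 (RBI2 labelled 120 min) and 0.03 (RBI2 against CX-5461 labelled 30 min), and the median over all genes tested between -0.05 and 0.06.

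**Figure D1:**
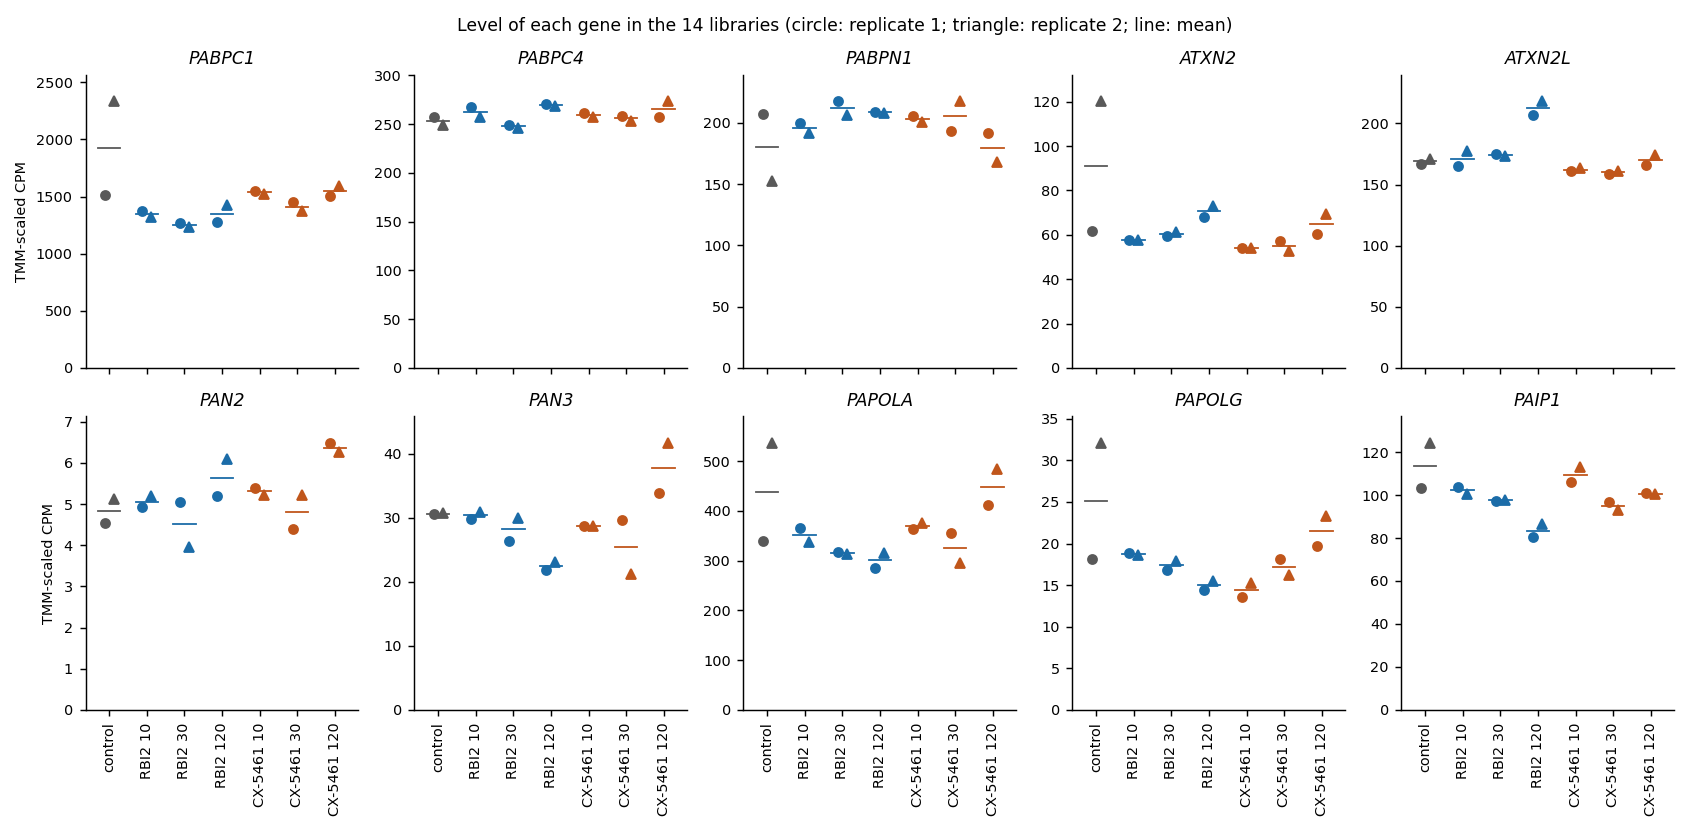
TMM-scaled CPM of the 10 genes in all 14 libraries, with a panel per gene, groups along the horizontal axis in labelled minutes, replicate 1 as circles, replicate 2 as triangles and the mean of each group as a line. Control replicate 2 is the highest library for PABPC1 (2334 CPM), ATXN2, PAPOLA, PAPOLG and PAIP1 and the lowest for PABPN1 (152.8 CPM), while PABPC4 varies by 1.11-fold over all libraries.

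**Figure D2:**
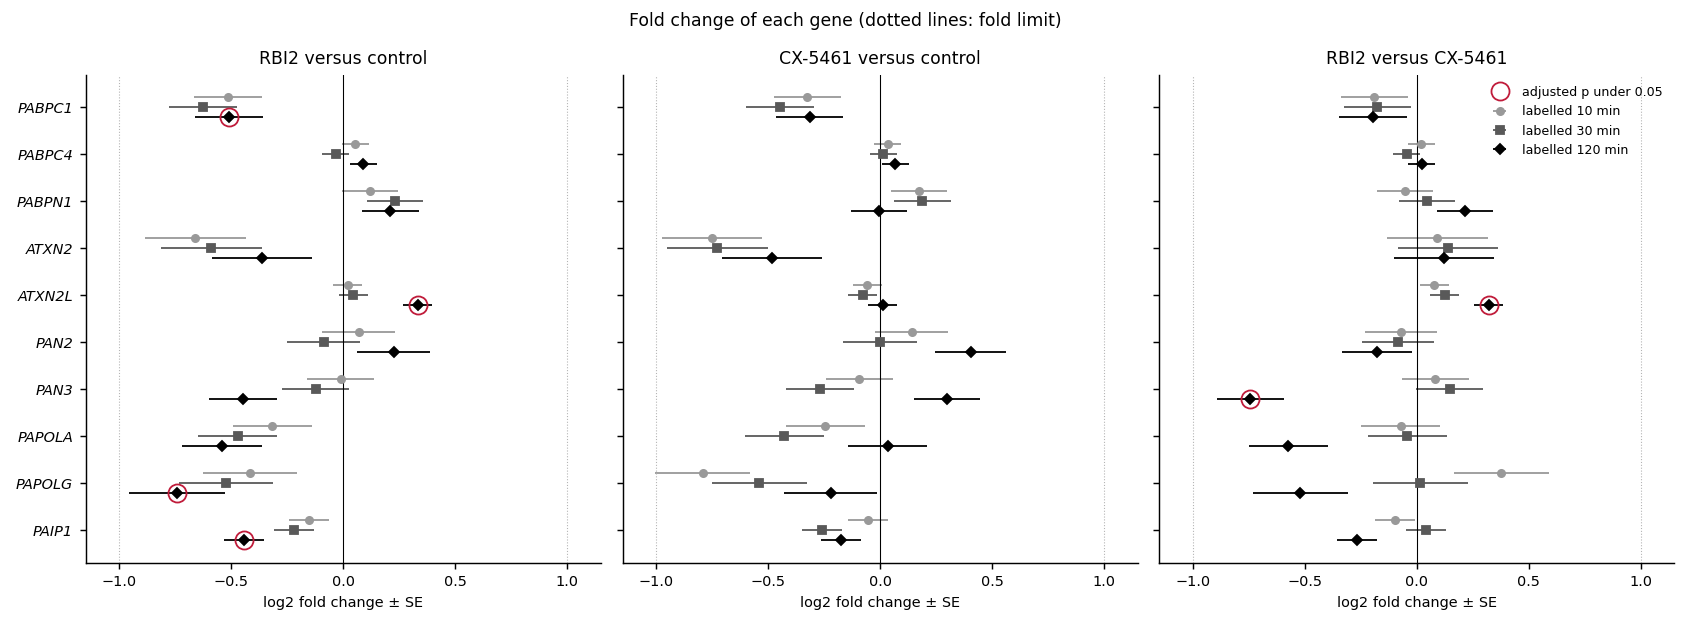
Log2 fold changes of the 10 genes with their standard errors for RBI2 against control, CX-5461 against control and RBI2 against CX-5461, with a marker for each labelled time. Rings mark adjusted p under 0.05, which 4 genes reach for RBI2 labelled 120 min and ATXN2L and PAN3 reach between the compounds at that label, and dotted lines mark the fold limit, which no point passes.

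PABPC1, the main cytoplasmic poly(A) binding protein gene, is on chromosome 8 (chr8:100685816-100722809, minus strand). It was measured at 1515 and 2334 CPM in the control. With RBI2 it lay at 1375 and 1319 CPM at the 10 min label, 1267 and 1229 CPM at 30 min, and 1277 and 1422 CPM at 120 min. With CX-5461 the values were 1549 and 1524, 1449 and 1372, and 1502 and 1592 CPM at the same labels. All 6 RBI2 libraries lay below both control libraries, whereas the CX-5461 libraries labelled 10 and 120 min lay between 1502 and 1592 CPM, close to control replicate 1. Of all genes, 7.14% had all 6 RBI2 libraries below both control libraries.

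The log2 fold change of PABPC1 was -0.51 ± 0.15, -0.62 ± 0.15 and -0.51 ± 0.15 for RBI2 at the 3 labels, with adjusted p of 0.238, 0.106 and 0.0424. It was -0.32, -0.45 and -0.31 for CX-5461 (adjusted p 0.233, 0.213 and 0.426). The mean over the RBI2 labels gave -0.55 ± 0.12 (adjusted p 0.0421). DESeq2 gave -0.51, -0.61 and -0.50 for RBI2 at the labels, all 3 with an adjusted p under 0.05 (0.0482, 0.00375 and 0.00614). With no filter on low counts edgeR gave RBI2 adjusted p of 1.6e-04, 1.4e-06 and 6.6e-05, and CX-5461 labelled 30 min also passed (-0.40, adjusted p 0.00362), as did the CX-5461 mean (-0.33, adjusted p 0.00193) and the difference between the means (-0.19, adjusted p 0.0234). Both edgeR calls made with the filter ended without control replicate 2, where the RBI2 values became -0.19, -0.29 and -0.17 (adjusted p 0.161 for the last) and the mean -0.22 ± 0.06 (adjusted p 0.19). CX-5461 then gave 0.02, -0.09 and 0.01. Without control replicate 1 instead, the RBI2 mean was -0.84 ± 0.06. Either call held in 1 of the 14 fits that left out a library. For RBI2 labelled 120 min, leaving out any 1 of the 10 libraries not compared moved the adjusted p past 0.05 as well, to values from 0.0526 to 0.0658. RBI2 against CX-5461 differed by -0.19, -0.18 and -0.20 at the labels (adjusted p 0.663, 0.906 and 0.419), with RBI2 libraries lower at each. Both RBI2 libraries were below both CX-5461 libraries for 27.3%, 18.1% and 33% of all genes at these labels. The means over the labels differed by -0.19 ± 0.09 (adjusted p 0.199). Leaving out either control library, which is in neither group, gave an adjusted p under 0.05 in both of the last 2 comparisons, 0.0264 and 0.0436 for the 120 min label and 0.00494 and 0.0041 for the means, with differences between -0.18 and -0.20. The study itself names PABPC1 and ATXN2 as lower at every RBI2 time. Its methods set a p under 0.05 and a log2 fold change of at least 1 either way. That statement comes from these same samples, so the direction of both genes is not independent evidence.

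ATXN2 (chr12:111443485-111599676, minus strand) showed the same dependence more sharply. The control libraries gave 61.9 and 120.2 CPM, a ratio of 1.94. RBI2 libraries gave 57.5 and 57.5 CPM at the 10 min label, 59.3 and 61.4 at 30 min, and 68.1 and 73.0 at 120 min. CX-5461 libraries gave 54.0 and 53.9, 57.2 and 52.5, and 60.5 and 69.5 CPM. The treated libraries thus ranged from 52.5 to 73.0 CPM around control replicate 1, and control replicate 2 lay far above all of them. Log2 fold changes were -0.66, -0.59 and -0.36 (each ± 0.22) for RBI2 and -0.75, -0.73 and -0.48 for CX-5461, and the smallest adjusted p of the 6 was 0.0898. DESeq2 gave -0.73 for CX-5461 labelled 10 min (adjusted p 0.0207). With no filter on low counts edgeR called ATXN2 lower in all 6, from -0.34 for RBI2 labelled 120 min (adjusted p 0.0494) to -0.71 for CX-5461 labelled 10 min (adjusted p 8.9e-07), and in both means (-0.51 and -0.62, adjusted p 1.3e-05 and 2.7e-08). The mean over the labels was -0.54 ± 0.18 for RBI2 (adjusted p 0.0771) and -0.65 ± 0.18 for CX-5461 (adjusted p 0.121), and by DESeq2 -0.53 and -0.64 (adjusted p 0.0274 and 0.0215). Without control replicate 2 the means were 0.00 ± 0.08 for RBI2 and -0.11 ± 0.08 for CX-5461. At the labels RBI2 then gave -0.13, -0.04 and 0.18, and CX-5461 gave -0.20, -0.16 and 0.04. The sign thus turned at the 120 min label for both compounds. Without control replicate 1, the CX-5461 mean was -1.06 ± 0.08.

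The transcripts show where the extra reads of control replicate 2 were placed. The tables list 24 transcripts of PABPC1, 20 of them under 1000 bases, and 43 of ATXN2, 13 of them under 1000 bases. Of those 20, 8 are longer in GENCODE release 44, at 2207 to 3116 bases, PABPC1-203 and PABPC1-209 among them, so their annotation may not describe the sequence that was counted. PABPC1-201 is the full-length mRNA of 2861 bases and held 49.2% of the PABPC1 reads over all libraries. It was measured at 796.1 CPM in control replicate 1, at 447.5 CPM in control replicate 2 and at 483.3 to 879.3 CPM in the treated libraries. The library with the highest PABPC1 level in CPM was thus the lowest for the full-length transcript. Its log2 fold change was -0.03 ± 0.28 for RBI2 labelled 10 min, 0.14 ± 0.28 for RBI2 labelled 120 min and 0.53 ± 0.28 for CX-5461 labelled 10 min, with adjusted p from 0.634 to 1. The next transcript, PABPC1-208 of 2401 bases, was measured at 314.8 and 210 CPM in the control and between 0 and 416.6 CPM in the treated libraries.

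Several short PABPC1 transcripts went the other way. Of the 20, 10 were higher in control replicate 2 than in control replicate 1, 7 were lower and 3 were at 0 in both. PABPC1-212, an annotated target of nonsense-mediated decay of 667 bases that lies between bases 1114 and 1838 of the full mRNA, was measured at 11 CPM in control replicate 1 and 423.1 CPM in control replicate 2, with 0.737 to 90.3 CPM in the treated libraries. PABPC1-202 (560 bases, between bases 1272 and 2107) gave 0.769 and 218.3 CPM in the control and 0 to 67.1 CPM in the others. PABPC1-205 and PABPC1-210 reached 195.2 and 88.3 CPM in control replicate 2 and were at 0 in all other libraries, so they did not pass the filter and were not tested. Nearer the 3′ end, PABPC1-216 (971 bases, from base 1908 to the end) gave 164.9 and 259 CPM in the control against 92.2 to 205.2 CPM, and PABPC1-204 (487 bases) gave 84.5 and 157.9 CPM against 37.9 to 103.7 CPM. PABPC1-209, of 851 bases in the tables, was at 64.2 and 55.2 CPM and did not share the pattern. Length did not separate the 2 kinds fully, since PABPC1-219, of 2331 bases and chosen after its values were seen, went from 4.72 to 46.9 CPM. Of the 4 longer PABPC1 transcripts, 1 was higher in control replicate 2 and 2 were lower.

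Of the 16 PABPC1 and 23 ATXN2 transcripts tested, 1 passed in 1 comparison, where 0.316% of 54804 transcripts did. It was PABPC1-203, annotated as a retained intron, with CX-5461 labelled 10 min. It fell from 12.5 and 10.7 CPM in the control to 1.38 and 1.09 CPM, and the fitted log2 fold change was -3.15 ± 0.42 with an adjusted p of 0.0227. DESeq2 made the same call, but the call was lost with no filter on low counts and without 1 library in 10 of 14 cases. With RBI2 labelled 10 min the same transcript lay at 3.99 and 3.10 CPM (log2 fold change -1.71, adjusted p 0.585). With CX-5461 PABPC1-203 was near the control at the other labels, at 14.5 and 7.24 CPM for 30 min and 11.2 and 15.9 CPM for 120 min (log2 fold changes -0.06 and 0.20, adjusted p 1 for both), and with RBI2 it lay between 5.10 and 8.95 CPM at those labels. It holds 0.517% of the PABPC1 reads. The common coefficient of variation between replicate libraries was 96.3% for transcripts and 12.3% for genes, so single transcripts are far less certain. A read of PABPC1 can also match its many processed copies in the genome.

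ATXN2 transcripts repeated the pattern in part, at lower depth. Of the 13 under 1000 bases, 7 were higher in control replicate 2 than in control replicate 1, 1 was lower and 5 were at 0 in both, and of the 30 longer ones 11 were higher and 8 lower. ATXN2-229 (4380 bases, with the CAG tract) gave 11.2 CPM in control replicate 1, 4.12 CPM in control replicate 2 and 7.86 to 18.5 CPM in the treated libraries. ATXN2-208, a retained intron of 4369 bases, gave 5.78, 1.21 and 2.29 to 7.66 CPM in the same order. ATXN2-232, of 1444 bases from the middle of the mRNA, went from 2.02 to 22.6 CPM between the control replicates, with 0 to 4.64 CPM in the others, and ATXN2-210 (793 bases) from 5.21 to 11.6 CPM, with 3.69 to 7.04 CPM. ATXN2-202 (1794 bases, the 3′ part) held 25% of the reads and differed less, at 18.3 and 24.1 CPM against 11.1 to 20.3 CPM. Some long transcripts were higher in control replicate 2, as ATXN2-231, of 4674 bases, at 3.28 and 5.70 CPM, and ATXN2-213, of 3205 bases and chosen after its values were seen, at 0 and 12.2 CPM, with 0 to 7.66 CPM in the treated libraries. The 15 of 43 transcripts that contain the CAG tract took 39.6% of the ATXN2 reads in control replicate 1, 9.01% in control replicate 2, and 26.4% to 47.2% in the treated libraries.

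**Figure D3:**
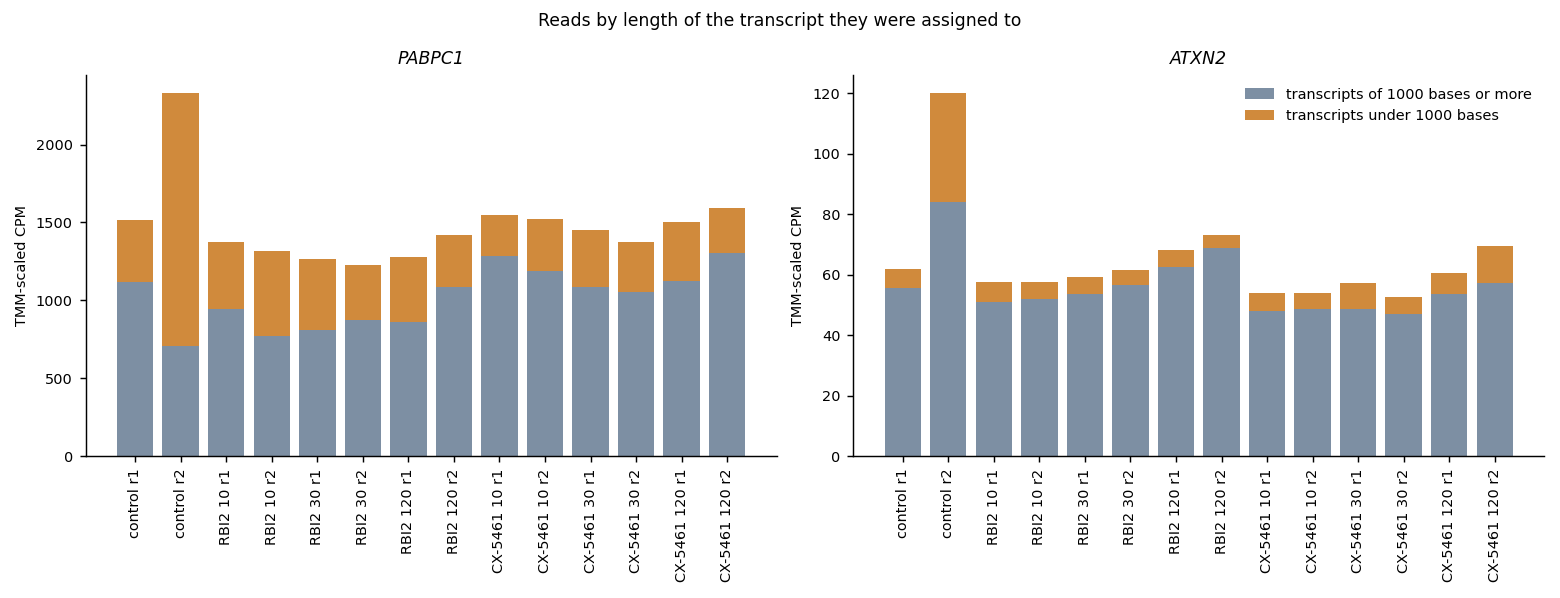
TMM-scaled CPM of PABPC1 and ATXN2 in each of the 14 libraries, stacked by the length of the transcript that the reads were assigned to. In control replicate 2 the part on transcripts under 1000 bases reaches 1629 CPM for PABPC1 and 36.2 CPM for ATXN2, against at most 547.8 and 12.3 CPM in the treated libraries.

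For PABPC1 the reads on transcripts of at least 1000 bases were 1116 and 704.5 CPM in the control and 770.8 to 1303 CPM in the treated libraries. Those on shorter transcripts were 399.6 and 1629 CPM in the control and 266.6 to 547.8 CPM in the others. The short share was 26.4% in control replicate 1 and 69.8% in control replicate 2, with 17.2% to 41.5% over the other 13 libraries. With the lengths of GENCODE release 44, an alternative added after seeing the data, it was 21.2% and 64.4% in the control and 12.3% to 37.4% in the treated libraries. ATXN2 had a short share of 10.4% and 30.1% in the control and 5.90% to 17.7% in the others, but its long transcripts were also higher in control replicate 2, at 83.9 CPM against 46.8 to 68.7 CPM.

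The same shift was present in most of the other members. Control replicate 2 had the highest short share of all 14 libraries for 8 of 10, all but PAN3 and PAIP1, and it was the highest library for 34% of 9965 protein-coding genes with both kinds of transcript. PABPN1 went from 8.40% to 38.1% between the control replicates, PABPC4 from 12.4% to 27.6%, ATXN2L from 14.2% to 28.1%, PAN2 from 20.6% to 45.2% and PAPOLA from 1.19% to 14.4%. The excess of control replicate 2 over the median of the other libraries was 44.8 percentage points for PABPC1, larger than in 98.9% of those genes, and 19.8 for ATXN2, larger than in 91.7%. The part of this library's state in the falls of PABPC1 and ATXN2 was not tested beyond the values given here.

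**Figure D4:**
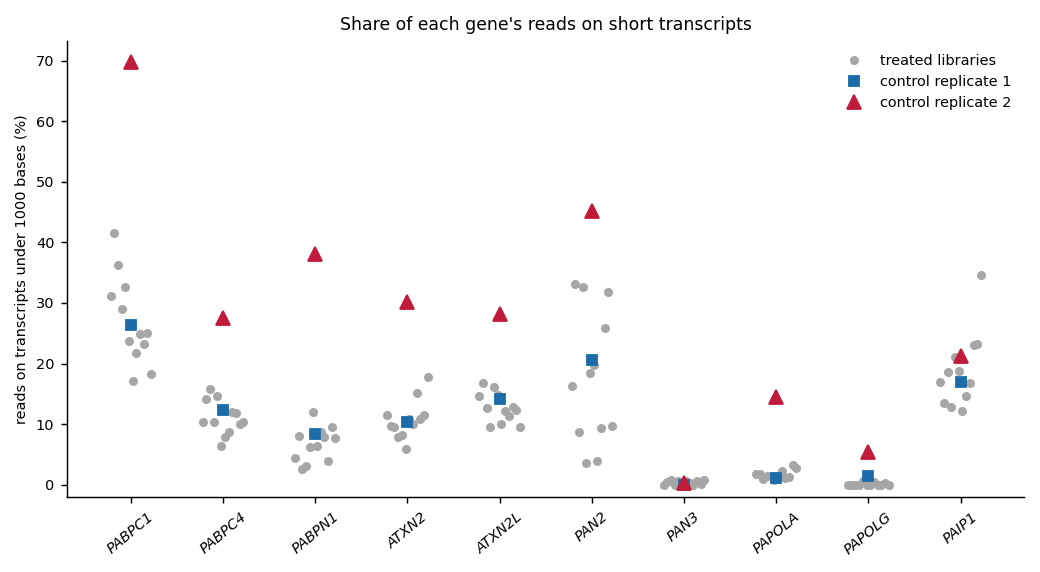
Percentage of the reads of each gene that were assigned to transcripts under 1000 bases, with control replicate 2 as triangles, control replicate 1 as squares and the 12 treated libraries as grey points. For PABPC1 the triangle is at 69.8% and every other library is at or below 41.5%, while for PAN3 all libraries lie below 0.8%.

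Other ways to count moved the fold changes of PABPC1 and ATXN2 in opposite directions. An offset for the average transcript length deepened them. PABPC1 became -1.14 ± 0.29 for the RBI2 mean (adjusted p 0.0783) and -1.23 ± 0.29 for the CX-5461 mean (adjusted p 0.138), and ATXN2 became -1.10 ± 0.31 (adjusted p 0.0805) and -1.14 ± 0.31 (adjusted p 0.167). The deposited TPM show the same, with PABPC1 at 1785 and 4350 TPM in the control and between 1508 and 2058 TPM in every treated library. Sums over transcripts of at least 1000 bases, chosen after the data were seen, gave PABPC1 -0.05 ± 0.16 for the RBI2 mean (adjusted p 0.848) and 0.35 ± 0.16 for the CX-5461 mean (adjusted p 0.234). These sums leave out 69.8% of the PABPC1 reads in control replicate 2, so they cannot show whether PABPC1 fell. For ATXN2 they gave -0.30 ± 0.12 and -0.48 ± 0.12 (adjusted p 0.114 and 0.088). From 2000 bases ATXN2 gave 0.13 ± 0.11 and 0.05 ± 0.11. In the latter sums ATXN2 in RBI2 labelled 120 min was higher than the control by 0.55 ± 0.14 (adjusted p 0.0208). They leave out shorter transcripts on which control replicate 2 was high, such as ATXN2-232, so they cannot decide whether ATXN2 rose. The full sums without control replicate 2 gave 0.18 at this label.

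**Figure D5:**
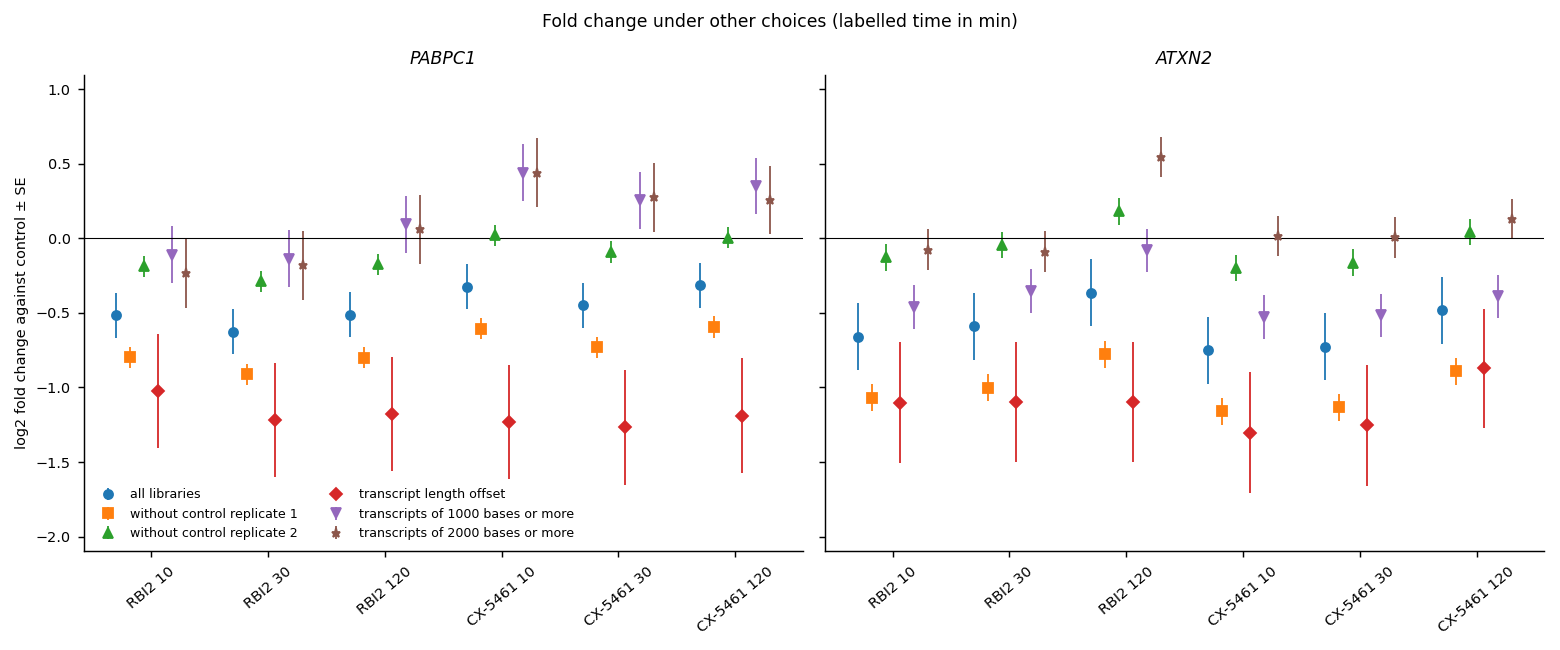
Log2 fold changes of PABPC1 and ATXN2 against the control with standard errors, for each compound and labelled time, under 6 ways of choosing libraries or transcripts. Points without control replicate 2 and from long transcripts lie higher than with all libraries, with ATXN2 from 1000 bases still below 0 in each group, and those without control replicate 1 and with the transcript length offset lie lower.

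The genes whose course over the 14 libraries was most like that of PABPC1, by the root mean square difference of centred log2 CPM, included PPIL4 (0.0461) and LEO1 (0.051), where the median over all tested genes was 0.302. For ATXN2 they were ENSG00000227706 (0.0794), PROSER1 (0.0843) and ZNF37A (0.0967), with a median of 0.347. Each of these was highest in control replicate 2. GAPDH, a reference gene, had log2 fold changes between -0.02 and 0.15 against the control at the labels (smallest adjusted p 0.274).

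ATXN2L (chr16:28822999-28837237, plus strand) rose with RBI2 at the 120 min label. The control gave 166.6 and 171.3 CPM, close together. RBI2 gave 164.8 and 177.8 CPM at the 10 min label, 174.9 and 173.7 at 30 min, and 207 and 218.2 at 120 min. CX-5461 gave 160.7 and 163.8, 158.7 and 161.4, and 166.4 and 174.1 CPM. Both RBI2 libraries labelled 120 min were above all 12 others. Of all genes, 27.2% had both of them above both control libraries, and 30.7% above both CX-5461 libraries of that label. The log2 fold change of ATXN2L was 0.33 ± 0.07 against the control (adjusted p 0.0134) and 0.32 ± 0.07 against CX-5461 at the same label (adjusted p 0.0134). Without control replicate 2 the rise was 0.35 ± 0.07 (adjusted p 0.0168). Without RBI2 120 min replicate 1 or 2, the values were 0.39 and 0.29 and the adjusted p 0.0684 and 0.0916. The call against CX-5461 at that label was kept in 10 of 14 fits without a library, with differences from 0.28 to 0.41. With the transcript length offset the rise against the control turned to -0.09 ± 0.21 (adjusted p 0.831), and the difference from CX-5461 was 0.55 (adjusted p 0.144). The RBI2 mean lay 0.17 ± 0.04 above the CX-5461 mean (adjusted p 0.0209), a call kept in 7 of 14 fits without a library. It was lost with the transcript length offset (0.40, adjusted p 0.0788), with no filter on low counts (0.17, adjusted p 0.0972) and in sums over transcripts of at least 1000 and 2000 bases (0.13 and 0.08, adjusted p 0.123 and 0.535).

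Among the deadenylase subunits, PAN3 (chr13:28138506-28295335, plus strand) differed between the compounds at the 120 min label. It was at 30.6 and 30.7 CPM in the control. RBI2 gave 29.9 and 30.9 CPM at the 10 min label, 26.4 and 30.0 at 30 min, and 21.9 and 23.1 at 120 min. CX-5461 gave 28.8 and 28.7, 29.7 and 21.2, and 33.9 and 41.7 CPM. At 120 min the RBI2 libraries were below both control libraries (27.7% of all genes) and the CX-5461 libraries above them (19.4%). RBI2 was -0.74 ± 0.15 from CX-5461 (adjusted p 0.0132), while the comparisons with the control gave -0.45 ± 0.15 for RBI2 (adjusted p 0.0635) and 0.30 ± 0.15 for CX-5461 (adjusted p 0.434). Without control replicate 2 the last 2 were -0.45 and 0.27 (adjusted p 0.128 and 0.458). The value for RBI2 passed by DESeq2 (-0.44, adjusted p 0.0397), with no filter and with the length trend offset. The call between the compounds was kept in 11 of 14 fits without a library. Without CX-5461 120 min replicate 2 the difference between the compounds was -0.56 (adjusted p 0.104). Length here is the mean over a gene's transcripts, weighted by reads. Genes long by that measure were, as a class, high in CX-5461 120 min replicate 2 and low in CX-5461 30 min replicate 2. The median log2 ratio to the mean of all libraries in the longest 25% of genes, minus that in the shortest 25%, was 0.34 and -0.37 there, and 0.05 in the other CX-5461 library labelled 120 min and 0.03 and 0.08 in the RBI2 libraries of that label. Control replicate 2 had 0.34 as well, with PAN3 at 30.7 CPM there and at 30.6 CPM in control replicate 1. The transcripts of PAN3 average 4981 bases. A correction for the trend with length gave -0.61 ± 0.12 (adjusted p 0.00516). The part of transcript length in the difference of PAN3 was not tested beyond these values. PAN2 (chr12:56316223-56334053, minus strand) ranged from 3.96 to 6.48 CPM and passed in none of the comparisons, with its largest value, 0.40 ± 0.16, for CX-5461 labelled 120 min (adjusted p 0.36), or 0.47 without control replicate 2 (adjusted p 0.301).

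PAIP1 (chr5:43526267-43557758, minus strand) fell with RBI2 labelled 120 min. It was at 103.1 and 124.2 CPM in the control. RBI2 gave 103.9 and 100.5 CPM at the 10 min label, 97.4 and 97.6 at 30 min, and 80.5 and 86.4 at 120 min, where both libraries were the lowest of the 14. CX-5461 gave 106 and 112.9, 96.7 and 92.9, and 100.8 and 100.4 CPM. The log2 fold change for RBI2 labelled 120 min was -0.44 ± 0.09 (adjusted p 0.014), and without control replicate 2 it was -0.31 (adjusted p 0.0274). Without RBI2 120 min replicate 1 or 2 the values were -0.37 and -0.50 (adjusted p 0.103 and 0.065). With the transcript length offset it was -0.45 (adjusted p 0.138), and in sums over transcripts of at least 2000 bases 0.13 (adjusted p 0.726). Against CX-5461 at that label the difference was -0.27 ± 0.09 (adjusted p 0.0637), and it passed in 2 of 14 fits without a library.

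Of the nuclear poly(A) polymerases, PAPOLG (chr2:60756253-60802086, plus strand) fell with RBI2 labelled 120 min. PAPOLA (chr14:96501433-96567116, plus strand) did not pass in the main edgeR fit, with all libraries, the filter on low counts and no length offset. PAPOLG was at 18.1 and 32.1 CPM in the control. RBI2 gave 18.8 and 18.7, 16.8 and 17.9, and 14.4 and 15.5 CPM, and CX-5461 gave 13.6 and 15.2, 18.2 and 16.2, and 19.7 and 23.3 CPM. The RBI2 libraries labelled 120 min and the CX-5461 libraries labelled 10 min were the lowest 4. The log2 fold change of PAPOLG was -0.74 ± 0.21 in the first of these groups (adjusted p 0.0392) and -0.79 ± 0.21 in the second (adjusted p 0.0626). Without control replicate 2 the first became -0.29 (adjusted p 0.187) and the second -0.33 (adjusted p 0.269), and the call in the first was kept in 4 of 14 fits without a library. The average transcript length offset also ended it (-0.82, adjusted p 0.111). With no filter PAPOLG passed in both groups (adjusted p 1.9e-04 and 1.1e-04), for RBI2 and CX-5461 labelled 30 min (both -0.49, adjusted p 0.0324 and 0.0352), in both means (-0.54 and -0.49) and between the compounds labelled 120 min (-0.50, adjusted p 0.0229), and with the length trend offset in both groups (adjusted p 0.0144 and 0.033) and the RBI2 mean (-0.50, adjusted p 0.032).

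PAPOLA gave 339.9 and 536.2 CPM in the control. With RBI2 it was at 366.3 and 336.8, 317.5 and 314.1, and 285.8 and 316.1 CPM, and with CX-5461 at 362.7 and 376.3, 355.8 and 295.3, and 411.6 and 484.8 CPM. Its log2 fold changes were -0.32, -0.47 and -0.54 for RBI2 (smallest adjusted p 0.0566) and -0.25, -0.43 and 0.03 for CX-5461. With control replicate 1 as the only control they were 0.03, -0.11 and -0.18 for RBI2 and 0.12, -0.05 and 0.37 for CX-5461. Without control replicate 1 they were -0.61, -0.77 and -0.84 for RBI2 and -0.54, -0.72 and -0.26 for CX-5461. A lone control library shows no spread between controls, so only the fold changes of PAPOLA are given for these fits. Between the compounds labelled 120 min the difference was -0.57 ± 0.18, with the groups apart (33% of all genes, lower) and an adjusted p of 0.0502. Leaving out control replicate 1 or 2, which are in neither group, gave an adjusted p of 0.00255 and 0.00226, and leaving out any other library one between 0.0561 and 0.277. DESeq2 gave -0.55 (adjusted p 0.0109). With no filter on low counts PAPOLA passed in that comparison (-0.55, adjusted p 1.6e-05), for RBI2 labelled 30 and 120 min (-0.44 and -0.52, adjusted p 0.00196 and 5.3e-05), for CX-5461 labelled 30 min (-0.38, adjusted p 0.0107), for the RBI2 mean (-0.42, adjusted p 5.5e-05) and between the means (-0.23, adjusted p 0.00487). With the length trend offset it passed between the compounds labelled 120 min (-0.45, adjusted p 0.0272), for RBI2 labelled 120 min (-0.48, adjusted p 0.0186) and for the RBI2 mean (-0.38, adjusted p 0.032), and with the average transcript length offset in none.

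The remaining poly(A) binding protein genes passed in none of the comparisons with all libraries. PABPC4 (chr1:39560709-39576790, minus strand) lay between 246.4 and 273.6 CPM over all 14 libraries, and its log2 fold changes against the control between -0.03 and 0.09 (± 0.06), the narrowest of the members, and between -0.06 and 0.06 without control replicate 2. Per length it was less even, at 258.1 TPM in control replicate 2 and 172.9 to 224.4 TPM in the other 13 libraries. With the average transcript length offset PABPC4 gave -0.44, -0.47 and -0.47 for RBI2 and -0.62, -0.54 and -0.52 for CX-5461 (± 0.21, smallest adjusted p 0.182). PABPN1 (chr14:23321457-23326163, plus strand) was at 207.5 and 152.8 CPM in the control and between 168.1 and 217.7 CPM in the treated libraries. Its log2 fold changes against the control lay between 0.00 and 0.23 (± 0.13), with a smallest adjusted p of 0.254. They rested on which control library was used. The values of PABPN1 without control replicate 2 were -0.10, 0.02 and 0.00 for RBI2 and -0.03, 0.00 and -0.23 for CX-5461. Without control replicate 1 they were 0.35, 0.46 and 0.44 for RBI2 and 0.41, 0.43 and 0.23 for CX-5461. A lone control library shows no spread between controls, so only the fold changes of PABPN1 are given for these fits. A readthrough transcript, BCL2L2-PABPN1, covers the gene on the same strand and took 1.91% to 9.34% of the reads of both, so that the split between them is uncertain.

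Around the members, 78 of 83 other genes of tail handling and of ataxin-2 partners were tested, a list drawn up with results of these data known. These genes were tested with all libraries only, so how far their values rest on control replicate 2 was not tested. With the fold limit, 1 passed, in the comparisons of CX-5461 labelled 10 min with the control and with RBI2. It was TENT5A, a noncanonical poly(A) polymerase gene, which was higher by 1.05 ± 0.18 on the log2 scale with CX-5461 (11.7 ± 0.28 against 5.68 ± 1.35 CPM, SD, n = 2, adjusted p 0.00826). RBI2 at that label lay 1.63 ± 0.19 lower than CX-5461 on the log2 scale, at 3.76 ± 0.17 CPM. With the adjusted p alone, 7 genes rose and 18 fell with RBI2 labelled 120 min, 32.1% of those tested against 18% of all genes, with a median log2 fold change of -0.22. Against CX-5461 at that label 6 were higher and 15 lower, 26.9% against 16.1%. With RBI2 labelled 120 min against the control, LARP1, which binds the 5′ end of mRNAs for the translation machinery, rose by 0.67 ± 0.09 (adjusted p 0.00521). TNRC6B, a scaffold of miRNA silencing that recruits deadenylases, rose there by 0.76 ± 0.125 (adjusted p 0.00809). Among those that fell were ZC3H14, a nuclear poly(A) binding protein gene (-0.65 ± 0.17, adjusted p 0.028), and CAPRIN1, a stress granule gene (-0.60 ± 0.17, adjusted p 0.0409), whose control libraries were far apart (SD of 52.5 and 176.5 CPM, n = 2).

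Of all genes, 8.9% rose and 9.07% fell at the RBI2 120 min label with the adjusted p alone. By family, 1 of the 19 deadenylase genes rose and 3 fell, 4 of 22 other poly(A) binding proteins and partners rose and 6 fell, 2 of 17 cleavage and polyadenylation genes rose and 3 fell, 0 of 10 noncanonical polymerases rose and 2 fell, and 0 of 10 ataxin-2 and stress granule partners rose and 4 fell. In the same order 21.1%, 45.5%, 29.4%, 20% and 40% of each family passed, against 18% of all genes. Against CX-5461 at that label TNRC6B was 0.92 ± 0.125 higher and TNRC6C 0.63 ± 0.15 higher, while the stress granule gene G3BP2 (-0.67 ± 0.14) and the tail-protecting LARP4 (-0.66 ± 0.16) were lower. With CX-5461 labelled 10 min 2 of the 78 rose and 7 fell, 11.5% against 4.77% of all genes. EIF4A2, an RNA helicase of translation initiation, fell from 443.2 ± 11.2 to 247.3 ± 3.32 CPM (SD, n = 2, adjusted p 6.4e-05), and PCF11, a 3′ end processing factor, by 0.72 ± 0.15 on the log2 scale (adjusted p 0.019). TOB2, which recruits deadenylases, rose by 0.44 ± 0.10 (adjusted p 0.0351). RBI2 at that label was higher than CX-5461 for EIF4A2 by 0.82 ± 0.07 and for PCF11 by 0.68 ± 0.15, and lower for TOB1 by 0.79 ± 0.18 on the log2 scale. In that comparison 3 of the 78 were higher and 2 lower, 6.41% against 3.06% of all genes. With RBI2 labelled 10 and 30 min, CX-5461 labelled 30 and 120 min, and between the compounds labelled 30 min, 0 of the 78 passed.

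For the mean over the RBI2 labels, 3 of the 78 rose and 3 fell, 7.69% against 4.99% of all genes. SYMPK, a scaffold of the cleavage and polyadenylation machinery, rose by 0.36 ± 0.06 on the log2 scale (186 ± 23.2 CPM in 6 libraries against 144.5 ± 5.0 CPM in 2, SD, edgeR adjusted p 0.0317). EIF4G1, the initiation factor that PABPC1 contacts, rose by 0.31 ± 0.08 (adjusted p 0.0468), and ZC3H14 was lower by 0.56 ± 0.13 on the log2 scale (adjusted p 0.0445). For the CX-5461 mean 0 rose and 1 fell, 1.28% against 0.752%. Between the means 8 were higher with RBI2 and 2 lower, 12.8% against 8.59%, among them TNRC6C, a relative of TNRC6B, by 0.57 ± 0.09 (adjusted p 0.00422).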

How the data were processed

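The authors removed reads that aligned to the rDNA repeat and ran Salmon (1.3.0 in the submitters' processing notes) against GRCh38 transcripts. They summarised transcripts per gene with tximeta and tested the genes with DESeq2. The deposited estimated counts are unnormalised reads per transcript, and the deposited TPM values are scaled per transcript length. Transcripts were matched without version to GENCODE release 44 (225662 of 228754), and estimated counts were summed per gene and rounded. The 3092 unmatched transcripts were left out. Counts were tested with edgeR 4.0.16 (R 4.3.3, limma 3.58.1), with TMM scaling, filterByExpr (minimum count 10), 1 model of 7 groups and the quasi-likelihood F test. The SE is the size of the log2 fold change divided by the square root of F. Python 3.11.15 and pandas 2.3.3 made the tables. The fit was tested on simulated data. The limit on the fold change is that of the study's methods, with adjusted p in place of p. Transcripts were fitted alike.

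Counting depth is 14112299 to 24849354 reads per library. The genes and lists were chosen with earlier results of these data known. Named were all members, from the list the 2 largest rises and falls per comparison among genes with adjusted p under 0.05 and groups apart, the 6 tested transcripts of PABPC1 and of ATXN2 with the most reads, the 3 genes most like each (1 is not reported here), and GAPDH. PABPC1-202, PABPC1-203, PABPC1-205, PABPC1-210, PABPC1-219 and ATXN2-213 were added after their values were seen. Alternatives were DESeq2 1.42.0, its size factors, no filter, no fold limit, an unadjusted p, length offsets, a replicate block, only the libraries compared, TPM, and each library left out. Sums over longer transcripts, PABPN1 with its readthrough, GENCODE lengths for the short share, and no fold limit without a control library were added after seeing the data.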

Additional observations from a re-analysis of the deposited data

Results flagged for a closer look

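The compounds differed in their own test for 2 of the 10 genes at the 120 min label, where 16.1% of all genes did, and for 1 between the means over the labels, where 8.59% did. ATXN2L was higher with RBI2 than with CX-5461 by 0.32 on the log2 scale at the 120 min label, in both libraries against both (30.7% of all genes). That call was kept in 10 of 14 fits without a library and lost with the transcript length offset (0.55, adjusted p 0.144). For the mean over the labels ATXN2L was higher by 0.17, a difference that did not pass with the transcript length offset or with no filter on low counts. PAN3 was lower with RBI2 than with CX-5461 at the 120 min label, with a log2 fold change of -0.74 and in both libraries against both (33% of all genes). That call was kept in 11 of 14 fits without a library, with values from -0.90 to -0.56. No group has enough libraries to look for a single one that stands apart by its spread.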

How the results depend on the processing

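No limit on the fold change gave 4 members for RBI2 labelled 120 min, 2 between the compounds at that label, 1 for the RBI2 mean and 1 between the means, beside 18%, 16.1%, 4.99% and 8.59% of all genes. With no filter on low counts and the adjusted p alone there were 2, 4 and 7 members for RBI2 labelled 10, 30 and 120 min, beside 2.79%, 6.7% and 11% of 34232 genes, 2, 4 and 1 for CX-5461 (6.78%, 6.25% and 1.9%), 0, 0 and 4 between the compounds (2.72%, 1.06% and 8.49%), and 4, 3 and 2 for the means (9.47%, 5.9% and 6.44%). The average transcript length offset left 1 member, PAN3 between the compounds labelled 120 min, and 0 for RBI2 labelled 120 min, beside 6.55% and 1.4% of all genes. The length trend offset gave 6 for RBI2 labelled 120 min (26.3%), 1 for CX-5461 labelled 10 min (6.25%), 3 between the compounds labelled 120 min (21.4%), 4 for the RBI2 mean (18.1%) and 1 between the means (15.6%). With no limit on the fold change and without control replicate 1, there were 6, 6 and 7 members for RBI2 labelled 10, 30 and 120 min, 5, 6 and 4 for CX-5461, 6 between the compounds labelled 120 min, 6 for either mean against the control and 4 between the means. The share of all 16252 genes was 29.1%, 38.3% and 43.1% for RBI2, 37.7%, 39.3% and 21.5% for CX-5461, 27.8% between the compounds labelled 120 min, and 41.6%, 37.2% and 21.8% for the means. Without control replicate 2 in its place, there were 2 for RBI2 labelled 120 min, 6 between the compounds at that label and 4 between the means, beside 8.27%, 27.9% and 22.8% of 16206 genes. These last 2 alternatives were chosen after seeing the data.

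With the fold limit, the fits without 1 library gave 0 to 1 members for RBI2 labelled 10, 30 and 120 min, for CX-5461 labelled 30 min and for the CX-5461 mean, 0 to 2 for CX-5461 labelled 10 min, and 0 in the other 6 comparisons. Each count above 0 came without control replicate 1, where the lone control library is assumed to vary like the other groups. ATXN2 then gave -1.07 for RBI2 labelled 10 min, just past the limit for RBI2 labelled 30 min, -1.16 and -1.13 for CX-5461 and -1.06 for the CX-5461 mean, and PAPOLG gave -1.11 for RBI2 labelled 120 min and -1.16 for CX-5461 labelled 10 min. The cause was not tested.

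For the transcripts of PABPC1 and ATXN2, DESeq2 gave 3 and 1 for RBI2 labelled 10 and 30 min, 3, 1 and 2 for CX-5461 at the 3 labels, 1, 2 and 1 between the compounds, and 3, 4 and 1 for the means, of the 16 and 23 tested. The share of all transcripts was 1.62% and 2.38%, 2.99%, 1.79% and 1.79%, 2.01%, 1.24% and 2.82%, and 2.99%, 2.5% and 3.06% in that order. With no filter on low counts CX-5461 labelled 10 min gave 0, beside 0.0468% of 130314 transcripts. Without 1 library the range was 0 to 2, 0 to 2 and 0 to 3 for RBI2, 0 to 3, 0 to 1 and 0 to 3 for CX-5461, 0 to 1 between the compounds labelled 10 min, 0 to 4 for the RBI2 mean, 0 to 5 for the CX-5461 mean and 0 to 1 between the means. The highest counts came without control replicate 1, where 4.42% to 6.34% of 64922 transcripts passed against the control, or, between the compounds, without RBI2 10 min replicate 1, where 0.0867% passed for the 10 min label and 0.172% for the means.

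Direction turned for 5 fold changes that passed the adjusted p of 0.05 under either setting, all for RBI2 labelled 120 min. ATXN2L became -0.087 with the average transcript length offset. In sums over transcripts of at least 1000 and 2000 bases PABPC1 became 0.094 and 0.062, and from 2000 bases ATXN2 became 0.55 and PAIP1 0.13. Of 2982 fold changes of members under alternatives, 183 changed sign, and 151 of these were under 0.2 in size with all libraries.

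The replicate numbers did not pair the samples: of 21 pairs of groups, 3 had a correlation of same-numbered deviations over 0.1 and 2 under -0.1. With the replicate block, 0 of 10 members passed the fold limit in each comparison. The transcripts of PABPC1 and ATXN2 gave 1 for CX-5461 labelled 10 min, beside 0.197% of 54804 transcripts. Over all genes the block moved the RBI2 mean from 70 to 20 calls and RBI2 labelled 30 min from 6 to 1. With the adjusted p alone PABPC1 in the RBI2 mean did not pass, at -0.54 (adjusted p 0.0536).

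Each group holds 2 libraries, every comparison with the control rests on the same pair, and PAN2, at 60 to 159 reads, is the least certain gene. Single transcripts rest on an assignment of reads by Salmon that carries its own error, which is not in these p-values.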
